A study of Mus musculus with 22 samples.

Results

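The vomeronasal V1R receptor genes of the mouse were examined for regions of lamin A/C, BRG1, CHD4 and Lap2alpha in dermal fibroblasts. Members were all RefSeq protein-coding genes on GRCm38 whose symbol starts with Vmn1r, each taken as its gene body plus 1 kb to each side, a rule that uses no measured value. The rule gave 231 genes of 21887 protein-coding genes on assembled chromosomes. Vmn1r186 and Vmn1r187, listed near the very start of chromosome 7, end before the first region of any list there (position 3089456). They were treated as not measured, which left 229 V1R genes of 21777 measured genes.

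V1R genes encode G protein-coupled receptors of sensory neurons in the apical layer of the vomeronasal organ, the sense organ behind the nostrils that detects pheromones and other social odours. Each such neuron is known to express 1 V1R gene from 1 allele, and its receptor signals through Gαi2 and the channel TRPC2. The genes have a coding sequence in a single exon, lie in dense clusters, and fall into subfamilies named with letters. Mice without a chromosome 6 cluster of V1ra and V1rb receptors are known to show less maternal aggression and altered male sexual behaviour, and V1rj receptors respond to sulphated estrogens. Fibroblasts are not known to use these genes.

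Binding was mapped by chromatin immunoprecipitation and sequencing (ChIP-seq) in cultured dermal fibroblasts, the collagen-producing cells of skin, either wildtype (WT) or knocked out for Lap2alpha (KO). Lamin A/C, the A-type lamins that line and fill the nucleus, was precipitated with antibody 3A6 or E1. Both genotypes were also mapped for BRG1, the motor of SWI/SNF remodellers, and CHD4, the motor of NuRD. Lap2alpha, a partner of A-type lamins inside the nucleus, was mapped with antibody 1H11 in WT cells. All cells were grown in the same serum-containing DMEM, crosslinked with DSG and formaldehyde, and sonicated for 16 or 20 cycles, which gave 18 lists of bound regions. The labels do not say how the KO was made or whether each genotype is 1 line of cells, nor the sex or age of the mice.

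The lists differed widely in size. They covered between 2.34 Mb (KO CHD4 at 20 cycles, 7283 regions) and 98.4 Mb (WT BRG1 at 20 cycles, 205999 regions). For lamin A/C, the covered length of the KO list was 1.87 times that of the matched WT list for 3A6 after 16 cycles and 0.908 times after 20, and for E1 it was 2.44 and 1.66 times. There was 1 library for each genotype, antibody and sonication length, so no test was possible, and each mean ± SD below shows the spread over antibodies and sonication lengths rather than over cultures. In the 3A6, BRG1 and CHD4 pairs of 20 cycles intervals overlap each other in the KO list and not in the WT list, and the part of this in the differences was not tested. The lists give no read depth and no peak height, and in a bulk culture a region in few cells and a weak region in all cells cannot be told apart. Of 13 fibroblast marker genes, 11 to 13 had a BRG1 region at a gene end in each BRG1 list, against 0 to 2 of 6 keratinocyte, 0 to 1 of 4 leukocyte, 2 to 3 of 5 melanocyte and 1 to 3 of 5 endothelial markers. Of 4 vomeronasal neuron markers, 2 to 3 had one, and these include the widely used G protein gene Gnai2. Between 51.3% and 77.7% of all genes had a BRG1 region somewhere in the gene window. The share with one at a gene end was not computed, so these counts do not establish the cell type.

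The 229 genes formed 13 clusters on 7 chromosomes, where a cluster is a run of V1R genes with gaps of at most 1 Mb. The 8 clusters of 3 or more genes held 222 of them. Chromosome 6 carried Vmn1r4 to Vmn1r31 (28 genes, 56923914 to 58472878, mostly subfamily C), Vmn1r32 to Vmn1r39 (8 genes, 66552183 to 66805332) and Vmn1r40 to Vmn1r54 (15 genes, 89711261 to 90270053, subfamilies A and B). Chromosome 7 carried Vmn1r55 to Vmn1r65 (11 genes, 5146490 to 6011010, mostly D), Vmn1r66 to Vmn1r89 (24 genes, 10273828 to 13220289, subfamilies E, G, J and K) and a tract from Vmn1r91 to Vmn1r183 (86 genes, 20101158 to 24055691, D where named). Chromosome 13 carried Vmn1r188 to Vmn1r223 (36 genes, 22087878 to 23250323, mostly H and I), and chromosome 17 Vmn1r224 to Vmn1r237 (14 genes, 20419163 to 21314886, E and F). The genes were short, with a median length of 924 bp and a range of 870 to 33695 bp, and no window overlapped that of another member. The table lists 142 further Vmn1r pseudogenes, which were not members.

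Start regions of 206 of the 229 genes were found in RefSeq (GRCm38.p6), each from 250 bases before to 50 bases after the annotated start. In 181 of these 206 the model begins with ATG, so most windows lie just before the coding sequence and their true transcription start is not annotated. The following 6 are shown because the results turn on them, from 5′ to 3′ on the gene's strand, with capitals for bases inside a region of the list named. Vmn1r228 and Vmn1r226 are from the chromosome 17 cluster. The first lies at chr17:20777452-20777751 on the minus strand with WT lamin A/C (E1, 20 cycles) in capitals, and the second at chr17:20687258-20687557 on the plus strand with KO lamin A/C (E1, 20 cycles).
Vmn1r228: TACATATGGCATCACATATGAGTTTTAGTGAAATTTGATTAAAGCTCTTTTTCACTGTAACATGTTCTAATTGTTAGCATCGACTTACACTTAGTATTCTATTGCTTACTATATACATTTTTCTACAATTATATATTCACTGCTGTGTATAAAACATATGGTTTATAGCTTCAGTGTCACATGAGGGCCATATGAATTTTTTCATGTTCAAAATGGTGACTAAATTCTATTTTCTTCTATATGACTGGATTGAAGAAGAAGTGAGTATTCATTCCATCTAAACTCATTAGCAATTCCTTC
Vmn1r226: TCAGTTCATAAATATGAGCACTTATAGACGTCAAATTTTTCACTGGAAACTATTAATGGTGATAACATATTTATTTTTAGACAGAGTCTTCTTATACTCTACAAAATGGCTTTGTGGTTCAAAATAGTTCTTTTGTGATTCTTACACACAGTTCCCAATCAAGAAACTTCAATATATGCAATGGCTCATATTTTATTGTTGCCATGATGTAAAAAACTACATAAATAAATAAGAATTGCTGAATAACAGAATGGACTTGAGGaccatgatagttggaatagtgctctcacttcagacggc
Vmn1r195, at chr13:22278067-22278366 on the plus strand with KO lamin A/C (E1, 16 cycles), and Vmn1r13, at chr6:57209608-57209907 on the plus strand with KO lamin A/C (E1, 20 cycles), were covered over most of the window.
Vmn1r195: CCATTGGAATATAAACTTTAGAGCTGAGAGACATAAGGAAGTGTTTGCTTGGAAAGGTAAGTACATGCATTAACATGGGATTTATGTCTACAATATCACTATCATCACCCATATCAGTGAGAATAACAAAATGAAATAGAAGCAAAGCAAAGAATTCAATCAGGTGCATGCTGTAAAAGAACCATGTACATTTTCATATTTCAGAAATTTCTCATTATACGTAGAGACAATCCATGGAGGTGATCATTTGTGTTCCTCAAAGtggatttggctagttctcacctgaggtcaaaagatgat
Vmn1r13: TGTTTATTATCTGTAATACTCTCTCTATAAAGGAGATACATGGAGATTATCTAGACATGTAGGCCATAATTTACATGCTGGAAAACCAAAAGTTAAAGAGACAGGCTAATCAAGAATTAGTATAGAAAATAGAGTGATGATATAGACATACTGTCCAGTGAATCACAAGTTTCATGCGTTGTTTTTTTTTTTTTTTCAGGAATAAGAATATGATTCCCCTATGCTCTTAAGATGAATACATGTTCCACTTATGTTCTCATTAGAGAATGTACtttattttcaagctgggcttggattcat
Vmn1r87, at chr7:13132309-13132608 on the minus strand, is shown with KO BRG1 (16 cycles) in capitals, and Vmn1r111, at chr7:20703167-20703466 on the minus strand, had no region in any list and shares its 300 bases with 5 other members.
Vmn1r87: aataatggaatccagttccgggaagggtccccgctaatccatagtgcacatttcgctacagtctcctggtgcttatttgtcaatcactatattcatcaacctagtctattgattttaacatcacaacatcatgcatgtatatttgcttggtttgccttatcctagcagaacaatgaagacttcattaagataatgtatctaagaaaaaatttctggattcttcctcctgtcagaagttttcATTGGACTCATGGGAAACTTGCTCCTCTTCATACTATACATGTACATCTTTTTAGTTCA
Vmn1r111: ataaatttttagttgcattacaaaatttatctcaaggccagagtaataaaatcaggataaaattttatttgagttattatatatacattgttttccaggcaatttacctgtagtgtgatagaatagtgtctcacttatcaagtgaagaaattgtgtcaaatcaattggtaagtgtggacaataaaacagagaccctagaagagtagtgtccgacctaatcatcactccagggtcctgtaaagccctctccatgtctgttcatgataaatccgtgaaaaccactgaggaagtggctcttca

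These start regions were poor in G and C, with a median GC content of 36% (24.3% to 51.3%) against 56.3% over the 21261 protein-coding start regions in the table. The homeodomain core TAATTA (both strands) was in 15 of 206, or 7.28%, against 4.53% of all start regions. The AP-1 motif TGACTCA (both strands, so TGAGTCA is the same match) was in 22, or 10.7%, against 4.66% of all, and 16 of the 22 lay in the tract from Vmn1r91 to Vmn1r183, where many sequences are copies of each other. The palindromic EBF motif (both strands) was in 0 of 206, against 0.960% of all. A match of letters is a description of the window and not a binding site.

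**Figure D1:**
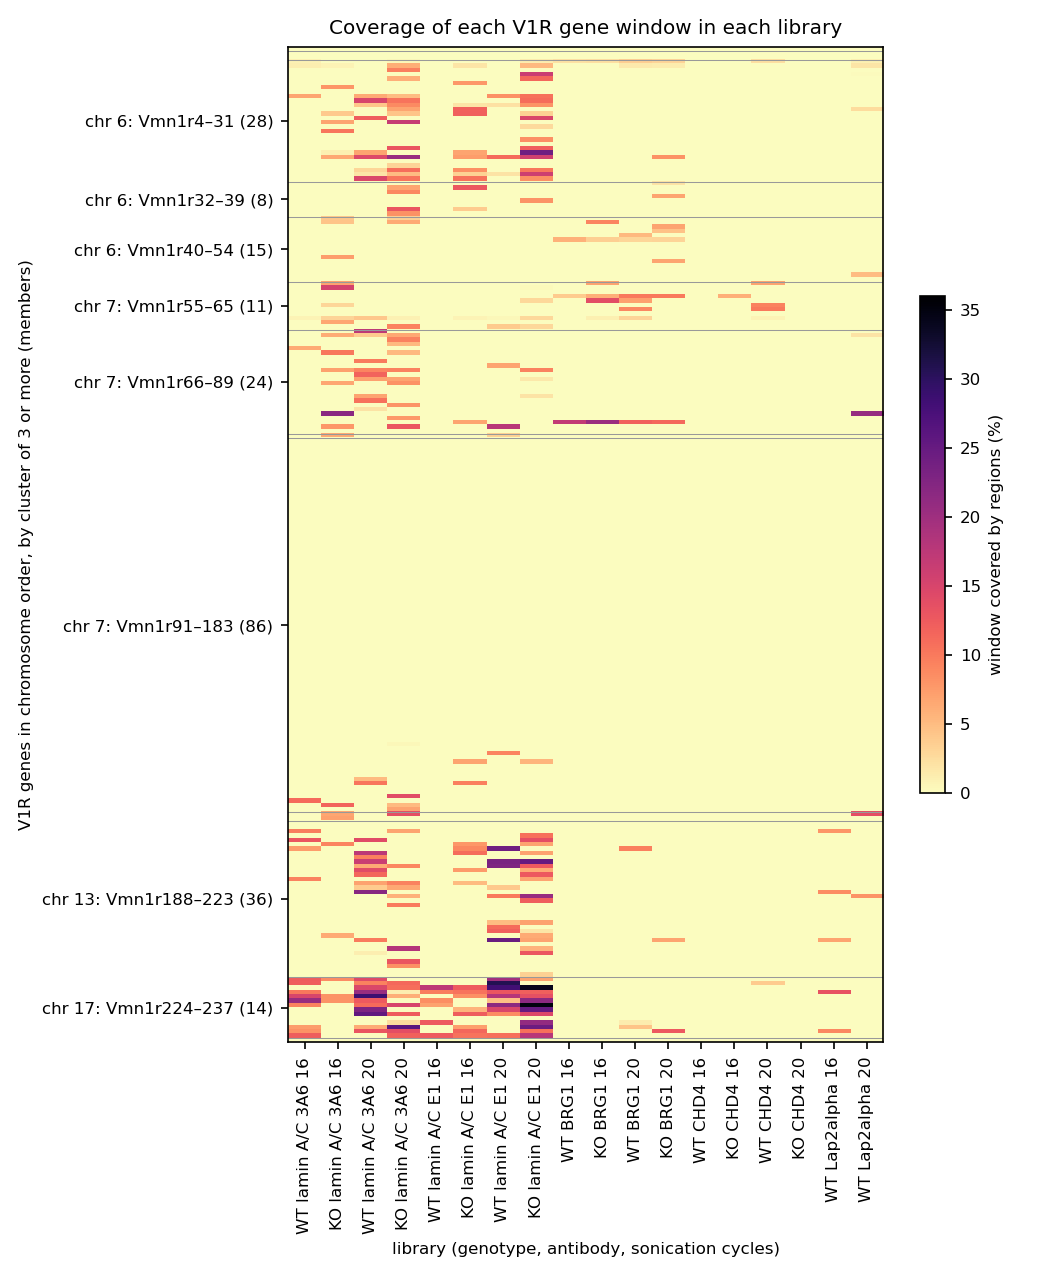
Percent of each V1R gene window (body plus 1 kb each side) covered by regions, 1 row per gene in chromosome order with lines between clusters (named where they hold 3 or more genes) and 1 column per library. Colour appears mainly in the 8 lamin A/C columns, in the rows of Vmn1r4 to Vmn1r31, Vmn1r66 to Vmn1r89 and the chromosome 13 and 17 clusters. The 86 rows of Vmn1r91 to Vmn1r183 are almost empty.

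Lamin A/C was the protein found most often over V1R genes, yet only over a minority of them in any library. Of 229 genes, 112 were touched by a lamin A/C region in at least 1 of 8 libraries, or 48.9%, while 69.7% of all genes were. No V1R gene was touched in all 8, 3 were in 7, 5 in 6 and 8 in 5, against 3.94%, 2.8%, 3.04% and 3.78% of all genes. In 107 V1R genes (46.7%) none of the 18 lists had a region at all, against 6.57% of all genes. The median V1R window was uncovered in every library.

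The number of V1R genes with a lamin A/C region, 1 bp being enough, was 19 in WT 3A6 at 16 cycles (8.30%, 95% Wilson interval 5.38% to 12.6%, against 14.3% of all genes). It was 44 in WT 3A6 at 20 cycles, 6 in WT E1 at 16 cycles and 29 in WT E1 at 20 cycles, where 15.9%, 7.69% and 11.9% of all genes had one. In KO cells 3A6 gave 30 and 58 after 16 and 20 cycles, against 57.1% and 45.5% of all genes, and E1 gave 30 and 56, against 23.1% and 23.2% of all genes. The largest of these V1R shares, 25.3% in KO 3A6 at 20 cycles, had an interval of 20.1% to 31.3%. The share of genes touched depends on window length, and V1R windows are short (median 2924 bp). The intervals cover counting error only, and clustered, similar genes are not independent.

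By mean length covered, V1R genes stood above other genes in most lamin lists, but the coverage was concentrated in few genes. The 14 genes of the chromosome 17 cluster held 36.1% of the lamin A/C coverage summed over members. They also included all 6 genes touched in WT E1 at 16 cycles. The comparison with all genes was not repeated without this cluster. Mean coverage of V1R windows in WT was 0.759% and 2.13% for 3A6 (16, then 20 cycles) and 0.295% and 1.63% for E1, between 1.69 and 2.12 times the mean over all genes. In KO it was 0.962% and 2.23% with 3A6 and 1.01% and 2.75% with E1. The KO 3A6 list at 16 cycles was the exception, with V1R windows at 0.681 times the all-gene mean, while the other KO lists stood at 1.63 to 1.86 times. Against the whole chromosome spans the V1R windows were close to or under average in all 8 lists, at 0.561 to 0.951 times the span's coverage.

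**Figure D2:**
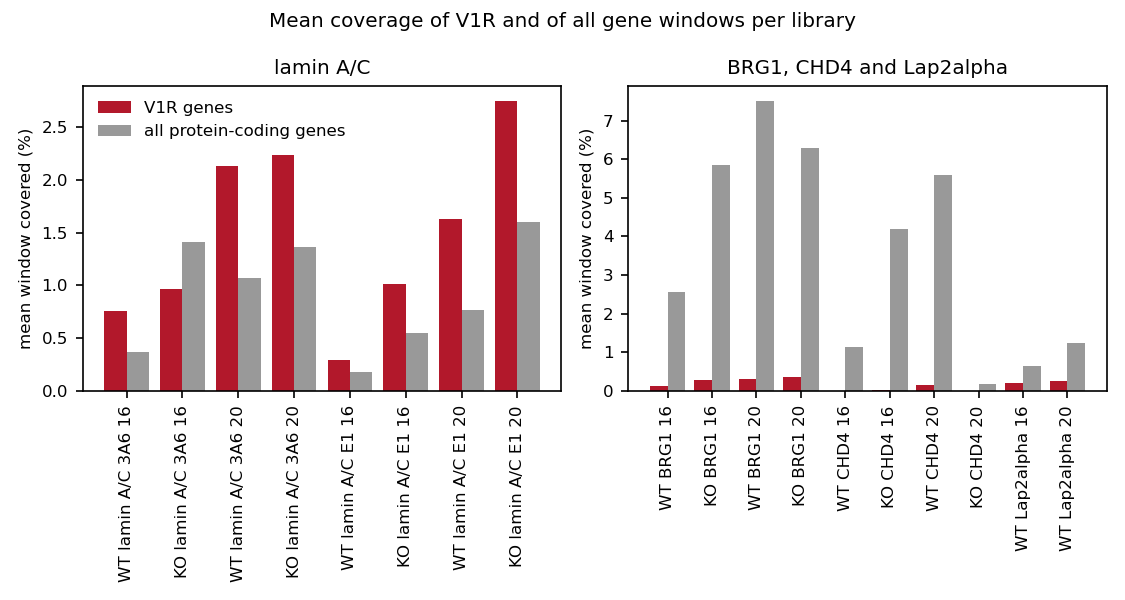
Mean percent of the gene window covered, V1R genes (red, n = 229) beside all protein-coding genes (grey, n = 21777), for each lamin A/C library (left) and each BRG1, CHD4 and Lap2alpha library (right; the vertical scales differ). Red stands above grey in every lamin A/C list except KO 3A6 at 16 cycles and far below it in every list on the right.

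Lamin A/C coverage of V1R genes was higher in KO than in WT in 4 of 4 matched pairs, but so was the coverage of genes at large. The mean over 4 WT lists was 1.203% ± 0.830 and over 4 KO lists 1.74% ± 0.896 (SD), a difference of 0.537 ± 0.478 percentage points over the 4 pairs. The pair differences were 0.203 and 0.101 points for 3A6 (16, then 20 cycles) and 0.718 and 1.13 points for E1. Over all genes the mean went from 0.595% ± 0.3996 to 1.23% ± 0.469, a difference of 0.637 ± 0.359 points. Expressed against the coverage of the chromosome spans, V1R coverage differed between KO and WT by 0.0351 ± 0.225, with values of -0.268, 0.127, 0.262 and 0.0193 for the 4 pairs, so no difference larger than the spread between pairs was seen. With the lists of each pair trimmed to equal covered length, the difference between KO and WT was 0.0672 ± 0.309 points, and keeping as many of the widest intervals on both sides gave 0.127 ± 0.383 points.

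Gene by gene, 2 V1R genes, or 0.873%, were higher in KO in all 4 pairs and 0 were lower in all 4, against 7.92% and 0.565% of all genes. Within single pairs, 3A6 had 26 and 49 V1R genes higher in KO (16, then 20 cycles) and 18 and 31 lower, while E1 had 28 and 49 higher and 5 and 15 lower. Over all genes 53.7%, 39.3%, 21.6% and 20.5% were higher in these pairs, and 5.71%, 8.53%, 2.93% and 3.89% lower. Over the 4 pairs, 59 V1R genes were higher at least once and never lower, 16 were lower at least once and never higher, and 37 went both ways, or 25.8%, 6.99% and 16.2%, against 56.8%, 2.38% and 10.5% of all genes. Regions touched 50 V1R genes (21.8%) in KO lists only, 13 (5.68%) in WT lists only and 49 (21.4%) in both, against 46.9%, 1.11% and 21.7% of all genes.

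The genes and bases covered coincided only in part between genotypes. Of the genes touched in a WT list, 5 of 19, 22 of 44, 3 of 6 and 21 of 29 were also touched in the matched KO list (3A6 at 16 and 20 cycles, then E1). As a share of KO genes these were 16.7%, 37.9%, 10.0% and 37.5%. Of the V1R bases covered in WT, 8.45% and 16.5% were also covered in KO with 3A6 and 47.8% and 43.6% with E1. Of the bases covered in KO, 6.19% and 14.1% were covered in WT with 3A6 and 11.6% and 22.1% with E1. The same overlaps were not computed for all genes or for the whole lists, so they cannot be read as a trait of V1R genes.

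Vmn1r16 and Vmn1r26 were the 2 genes higher in all 4 pairs, and both lie in the Vmn1r4 to Vmn1r31 cluster and encode subfamily C receptors. Vmn1r26 (chromosome 6, 58008183 to 58009202) was covered over 0%, 14.4%, 0% and 11.1% of its window in WT (3A6 at 16 and 20 cycles, then E1), and over 6.56%, 20.5%, 7.42% and 15.6% in KO. Vmn1r16 (57320739 to 57323635) was uncovered in all 4 WT lists and covered over 4.04%, 4.49%, 12.1% and 3.49% in KO. The mean difference was 6.14 ± 1.22 points for Vmn1r26, whose WT and KO values overlap. For Vmn1r16 it was 6.03 ± 4.06 points. With all 4 WT values at 0, a gene higher in all 4 pairs must have KO values above every WT value. Its lack of overlap therefore follows from how it was picked.

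The whole Vmn1r4 to Vmn1r31 cluster was covered more in KO, in its genes and beside them. Its 28 genes averaged 0.313%, 2.80%, 0% and 0.849% in WT (3A6 at 16 and 20 cycles, then E1) and 1.34%, 4.92%, 2.57% and 6.42% in KO. Each KO value exceeded its WT partner, and the mean difference was 2.82 ± 1.94 points. Lamin A/C regions touched 13 of the 28 genes in KO lists only, 11 in both genotypes and 0 in WT lists only. Over all genes these shares were 46.9%, 21.7% and 1.11%, so the share touched in KO only was near that of genes at large. The 1 Mb to each side of the cluster was also higher in KO in all 4 pairs, at 0.109% ± 0.0291 covered in WT and 1.17% ± 0.430 in KO. The whole of chromosome 6 stood at 1.15% in WT and 2.39% in KO.

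Vmn1r13 of this cluster, whose start region is printed above, was uncovered in WT 3A6 at 16 cycles and both WT E1 lists and covered over 15.0% of its window in WT 3A6 at 20 cycles. In KO it was covered over 10.5% in 3A6 and 11.02% in E1 at 20 cycles and 0% at 16 cycles. Only the KO regions reached the start, over 78% of its 300 bases with 3A6 and 90.7% with E1. Vmn1r17, another subfamily C gene, had a region in 2 lists, 12.2% of the window in WT 3A6 and 14.8% in KO E1, both at 20 cycles. They covered 5.67% and 32% of its start region.

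The other chromosome 6 clusters had no lamin A/C region on a V1R gene in any WT list, a state shared by 72.9% of V1R genes and 77.2% of all genes. Between the genes of Vmn1r32 to Vmn1r39, WT lists of 20 cycles did hold regions, 10 with 3A6 and 3 with E1. Vmn1r32 to Vmn1r39 reached 0%, 4.62%, 2.08% and 1.00% in KO (3A6 at 16 and 20 cycles, then E1), with 5 of 8 genes touched. Its most covered gene was Vmn1r33, a subfamily C receptor, at 6.72% in KO 3A6 at 20 cycles and 12.7% in KO E1 at 16 cycles and 0% in the 6 other lamin lists. Vmn1r40 to Vmn1r54, the V1ra and V1rb cluster, reached 1.06% and 0.647% in the KO 3A6 lists and 0% with E1. There 3 of 15 genes were touched, led by Vmn1r41 at 4.48% and 6.33% in the KO 3A6 lists. Its 8 subfamily A genes were free of lamin A/C in every list.

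**Figure D3:**
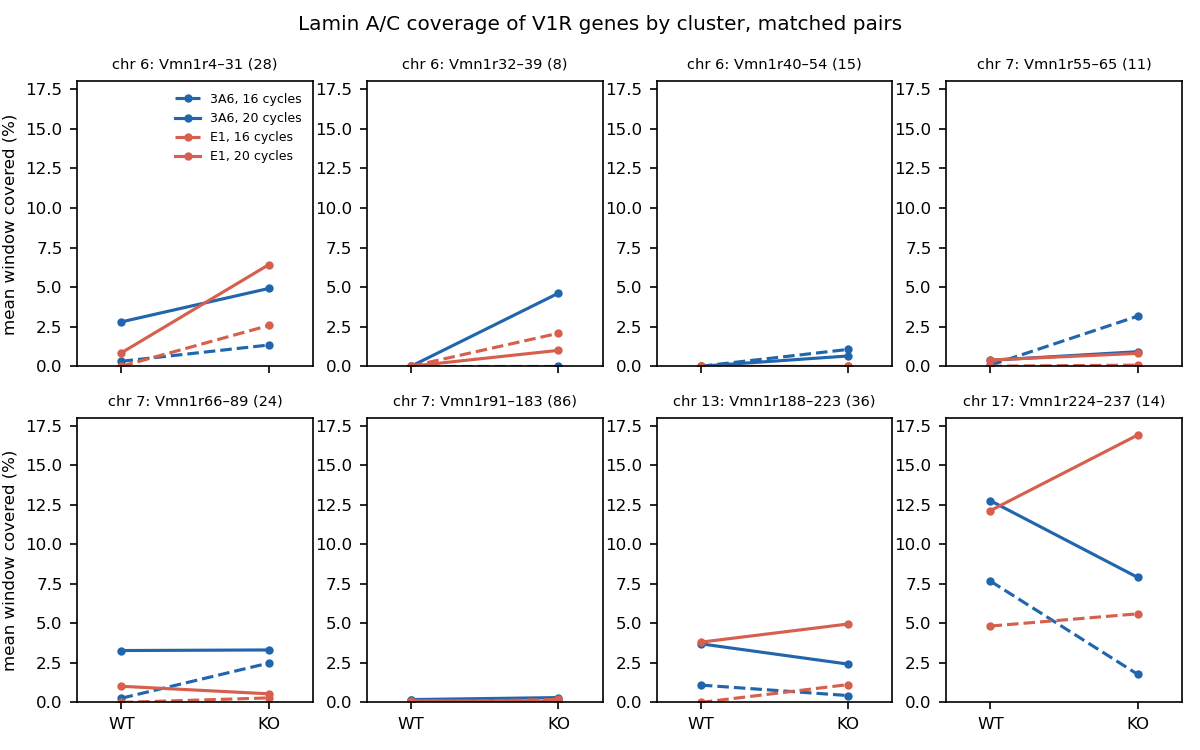
Mean lamin A/C coverage of V1R windows in WT and KO, 1 panel per cluster of 3 or more genes (number of genes in brackets) and 1 line per matched pair (3A6 blue, E1 red; dashed 16 cycles, solid 20 cycles). All 4 lines end higher in KO for Vmn1r4 to Vmn1r31, while for chromosome 13 and chromosome 17 the 3A6 lines end lower and the E1 lines higher.

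Averaged over libraries, the chromosome 17 cluster was covered most by lamin A/C of all V1R clusters in both genotypes. Its 14 genes held 36.1% of the lamin A/C coverage summed over members and 12 of the 24 V1R genes touched in 4 or more lamin lists. The share of all genes touched in 4 or more lists was not computed. Coverage averaged 7.67%, 12.7%, 4.83% and 12.1% in WT (3A6 at 16 and 20 cycles, then E1) and 1.77%, 7.90%, 5.60% and 16.9% in KO. It was lower in KO by 5.89 and 4.85 points with 3A6 and higher by 0.775 and 4.78 points with E1, a mean difference of -1.297 ± 5.00 points. The genotypes overlap, and the direction was opposite for the antibodies, a difference that was not tested. With 3A6 left out at 16 cycles, the mean difference was 0.236 points.

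Within this cluster lamin A/C touched 13 of 14 genes in both genotypes, and the exception, Vmn1r233, named after its values were seen, had none in any lamin list. With 3A6, 0 genes were higher in KO and 9 lower at 16 cycles, and 6 were higher and 7 lower at 20 cycles. With E1, 6 were higher and 5 lower at 16 cycles, and 9 were higher and 4 lower at 20 cycles. Over all genes 53.7%, 39.3%, 21.6% and 20.5% were higher in these pairs, and 5.71%, 8.53%, 2.93% and 3.89% lower. Vmn1r226, a subfamily E receptor gene (20687508 to 20688404), had the highest mean of all members, 14.7% over the 8 lists. It was covered over 0%, 14.6%, 17.3% and 28.2% of its window in WT and 0%, 10.8%, 12.4% and 34.0% in KO (3A6 at 16 and 20 cycles, then E1). Its difference, -0.708 ± 4.86 points, was smaller than the spread over pairs. Both 3A6 lists at 16 cycles missed this gene and both E1 lists at 20 cycles covered it most.

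Vmn1r228 (20776059 to 20777501), also of subfamily E, was the member whose start region was overlapped in the most lamin lists. Regions covered 53% of the 300 bases in WT 3A6 at 20 cycles, 100% in WT E1 at 20 cycles, and 95.3% and 48.3% in KO E1 at 16 and 20 cycles. Its window was covered over 14.9%, 28.6%, 0% and 17.9% in WT and 8.02%, 5.93%, 8.31% and 13.6% in KO, a difference of -6.38 ± 12.7 points. The 8 subfamily E genes of the cluster went from 12.3% in WT to 8.68% in KO, and its 5 subfamily F genes from 4.14% to 7.87%. By pair, subfamily F differed by -5.56 and 6.99 points with 3A6 and 0.837 and 12.7 points with E1, so the SD of 7.86 points exceeded its mean of 3.73.

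The surroundings of the chromosome 17 cluster were also covered, though less than its genes. The 1 Mb to each side stood at 5.79% ± 3.49 in WT and 4.23% ± 3.30 in KO, and differed by -2.36 and -5.79 points with 3A6 and 1.14 and 0.745 points with E1, with the same signs as the genes. Chromosome 17 as a whole stood at 2.58% in WT and 2.70% in KO.

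The chromosome 13 cluster, of subfamilies H and I, had the same signs by antibody in the mean over its genes, at a lower level. Its 36 genes averaged 1.10%, 3.70%, 0% and 3.81% in WT and 0.433%, 2.42%, 1.13% and 4.96% in KO (3A6 at 16 and 20 cycles, then E1). They were lower in KO by 0.663 and 1.28 points with 3A6 and higher by 1.13 and 1.15 points with E1, so the mean of 0.0824 ± 1.25 points showed no difference. Gene by gene, 3A6 had 2 higher and 4 lower at 16 cycles, and 9 higher and 9 lower at 20 cycles. E1 had 6 higher and 0 lower, then 15 higher and 6 lower. The shares of all genes in these pairs are given above. The whole span of the cluster differed by 0.306 and -1.14 points with 3A6 and 0.698 and 3.06 points with E1. Here the flanks differed from the genes. They were higher in KO in 4 of 4 pairs, at 0.0265% covered in WT and 0.593% ± 0.573 in KO, and on average lay below the V1R genes in both genotypes.

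Vmn1r198, a subfamily I receptor gene, had the highest mean there, 8.07%, from 3 lists. It was covered over 16.2% in WT 3A6, 23.2% in WT E1 and 25.1% in KO E1, all at 20 cycles, and 0% in the other 5. Vmn1r195 and Vmn1r215, of the same subfamily, each had a start region overlapped in 2 lamin lists. For Vmn1r195 these were WT E1 at 20 cycles (85.7% of 300 bases) and KO E1 at 16 cycles (87.3%), and for Vmn1r215 they were WT 3A6 (26%) and WT E1 (21.3%) at 20 cycles.

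**Figure D4:**
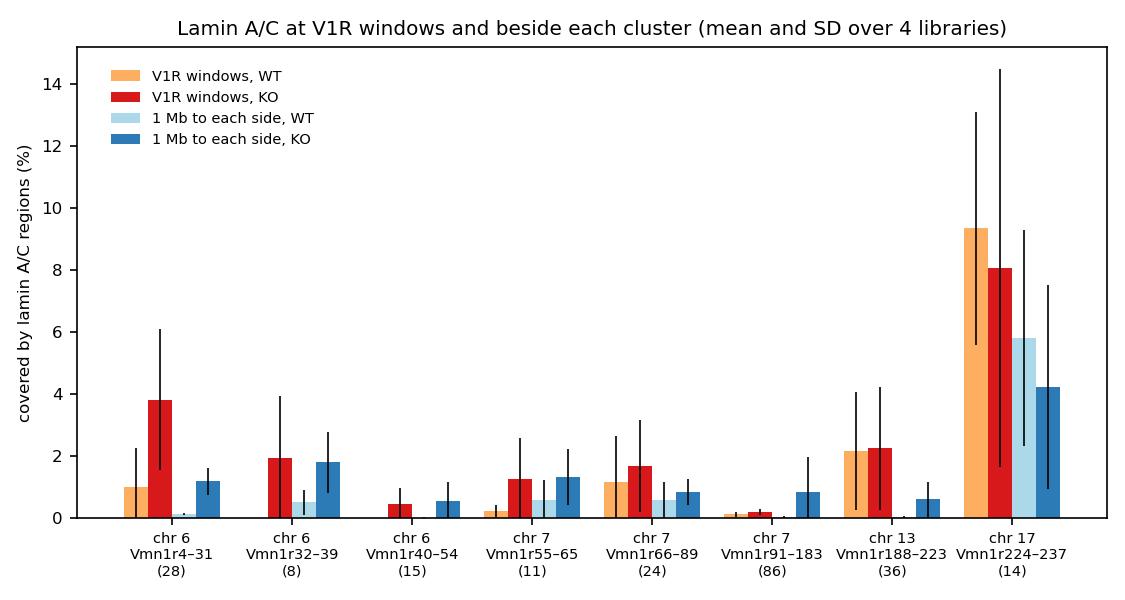
Mean lamin A/C coverage of V1R windows (orange WT, red KO) and of the 1 Mb to each side of the cluster (light blue WT, dark blue KO) for the 8 clusters of 3 or more genes. Bars are means and lines 1 SD over 4 libraries (lines are drawn down to 0 at most); the chromosome 17 bars are the highest for both genes and flanks, and the chromosome 13 flanks lie well below their genes.

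The chromosome 7 clusters of 3 or more genes were covered less than those of chromosomes 13 and 17 on average. Vmn1r55 to Vmn1r65 went from 0.210% ± 0.204 in WT to 1.24% ± 1.34 in KO, higher in 4 of 4 pairs by 3.10 and 0.543 points with 3A6 and 0.0695 and 0.416 points with E1. Its most covered gene, the subfamily D receptor Vmn1r65, had 3.92% of the window covered in WT E1 and 2.81% in KO E1 at 20 cycles, 9.16% in KO 3A6 at 20 cycles and none in the other 5 lists. Vmn1r66 to Vmn1r89 went from 1.14% ± 1.49 to 1.66% ± 1.48, higher in 3 of 4 pairs, and the 2 genotypes overlap. Its most covered gene, Vmn1r88, had 17.7% in WT E1 at 20 cycles and 7.86% and 12.8% in the KO 3A6 lists. The pair of V1rj genes in this cluster had a lamin A/C region in 1 list only, KO 3A6 at 16 cycles, on 1 of the 2 genes. Of the 7 V1R genes in clusters smaller than 3, lamin A/C touched 3.

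In the tract from Vmn1r91 to Vmn1r183 few V1R genes were touched by a region of any protein. Only 9 of its 86 genes were touched in any lamin list, and 0 of 86 in any BRG1, CHD4 or Lap2alpha list. Mean lamin A/C coverage was 0.104% ± 0.0757 in WT and 0.175% ± 0.102 in KO. Its most covered gene, Vmn1r176, had 10.3% in WT 3A6 at 20 cycles and 9.67% in KO E1 at 16 cycles. The 3.95 Mb span held on average 0.379 BRG1 regions per Mb, against 76.3 per Mb in the 1 Mb to each side.

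Lamin A/C regions were not missing from the tract as a whole. Its span was covered over 0.247% ± 0.264 in WT against 0.0211% ± 0.0219 of the flanks, and over 0.299% ± 0.144 against 0.841% ± 1.11 in KO. In the 4 WT lists and both KO E1 lists the span held more lamin A/C regions per Mb than the flanks, with 0.505 to 20.7 against 0 to 2. The KO 3A6 lists were the reverse, with 15.7 and 13.6 against 102 and 35.

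Those 9 genes all lay at one end of the tract. Along the first 3.15 Mb, lamin A/C regions touched 0 of 70 genes, and along the last 0.551 Mb, from 23504642 on, 9 of 16 did. This division was drawn after the values were seen, at the first gene touched by lamin A/C, so the 0 of 70 follows from where it was placed. The start regions of 67 of 68 genes in the first stretch were at least 95% identical to that of another V1R gene, and those of 6 of 15 in the last stretch.

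Over the whole family a like contrast was seen, but most of the near-identical genes lay in this tract. Start regions of 83 of 206 V1R genes were at least 95% identical to that of another member, and 54 matched another member in every base, in 21 sets of up to 6 genes. Of the 83, 73 lay in the tract from Vmn1r91 to Vmn1r183. In all, 5 of the 83 (6.02%) had a lamin A/C region in any list and the mean coverage was 0.0841%. Of the 123 below 95% identity, 94 (76.4%) had one and the mean was 2.32%. Outside the Vmn1r91 to Vmn1r183 tract, 3 of 10 near copies had a region against 87 of 113 others. Identity and cluster were not separated. Reads from sequences repeated in the genome cannot be placed uniquely, the deposited lists do not say how such reads were handled, and their part in the empty stretch was not tested.

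**Figure D5:**
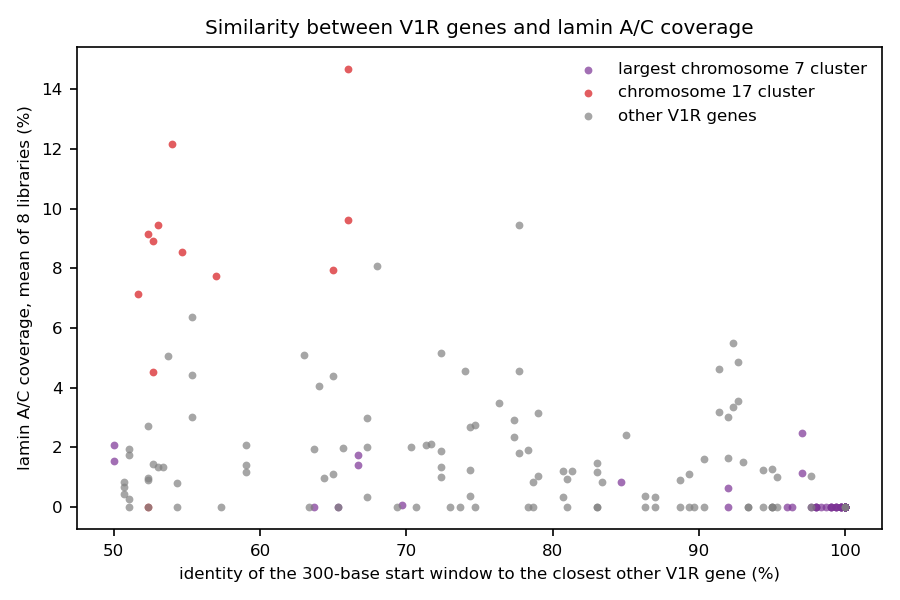
Mean lamin A/C coverage over 8 libraries of each V1R gene window (vertical) against the identity of its 300-base start region to the closest other V1R gene (horizontal), for the 206 genes with a start region. The largest chromosome 7 cluster (purple) piles up near 100% identity and 0% coverage, and the chromosome 17 cluster (red) lies between 50% and 70% identity with the highest coverage.

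Lamin A/C covered the downstream side of V1R genes more than the upstream side in 7 of 8 lists. For the 206 genes with a strand, the 1 kb upstream was covered over 0.890% ± 0.775 in WT and 1.60% ± 0.663 in KO, the body over 1.22% ± 0.852 and 1.47% ± 1.01, and the 1 kb downstream over 1.39% ± 1.01 and 1.86% ± 1.00. The exception was KO E1 at 16 cycles, with 1.18% upstream and 0.804% downstream. These segments were not computed for other genes, and the difference between the sides was not tested. Of the 206 start regions, 29 were overlapped by a lamin A/C region in at least 1 list and 7 in at least 2. The same counts over the start regions of all genes were not computed, so whether these are many or few is not known.

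BRG1 regions lay on few V1R genes in both genotypes. WT regions touched 4 V1R genes at 16 cycles (1.75%, against 51.3% of all genes) and 12 at 20 cycles (5.24%, against 77.7%). KO regions touched 8 (3.49%, against 68.6%) and 13 (5.68%, against 73.8%). Mean coverage was 0.126% and 0.305% in WT and 0.276% and 0.365% in KO, 0.0405 to 0.0580 times the all-gene mean. The KO value was higher by 0.149 points at 16 cycles and 0.0604 at 20 cycles, while all genes differed by 3.29 and -1.23 points. At 16 cycles 7 V1R genes were higher in KO and 1 lower, against 62.3% and 7.84% of all genes, and at 20 cycles 9 were higher and 10 lower, against 28% and 52.5%.

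Still, of the 22 V1R genes with a BRG1 region in any list (81.5% of all genes), 4 had one in each of the 4 lists (49.0% of all genes). Vmn1r87, the only subfamily K member, was covered over 16.97% of its window in the WT list and 20.3% in the KO list of 16 cycles, then 11.8% and 11.3% with 20. The regions shared 326 bp in the 4 lists, at chr7:13131912-13132237 inside the 888 bp gene, between its neighbours Vmn1r86 (13101997 to 13102947) and Vmn1r88 (13177719 to 13178669). At 16 cycles they ran on into its start region, over 3.67% of the 300 bases in WT and 19.7% in KO, as the capitals above show. The gene lacked CHD4 and Lap2alpha regions, and among the lamin lists KO E1 at 16 cycles alone had one (6.86%).

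Vmn1r58, a subfamily D gene, was covered by BRG1 over 3.83% and 10.0% in WT and 5.94% and 10.0% in KO. Its regions shared 240 bp at chr7:5412602-5412841, and the 1 CHD4 region found on a V1R gene in KO, at 16 cycles, spanned the same place (5412537 to 5412906). Vmn1r4 was covered over 2.21% and 3.53% in WT and 2.31% and 3.13% in KO, but its shared 790 bp lay at the end of the neighbouring gene Nt5c3, a nucleotidase, so the signal cannot be given to the receptor. Vmn1r45, a subfamily A gene, was covered over 5.89% and 3.02% in WT and 3.65% and 3.22% in KO, and no base was shared by its regions in the 4 lists.

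CHD4 and Lap2alpha regions were rarer still. CHD4 touched 0 V1R genes in WT at 16 cycles (35.4% of all genes), which allows a share of up to 1.31%, 6 in WT at 20 cycles (68.7%), 1 in KO at 16 cycles (63.7%) and 0 in KO at 20 cycles (13.5%). Mean coverage was 0%, 0.145%, 0.0258% and 0%, so the pair differences were 0.0258 and -0.145 points, while the KO list at 20 cycles covered 0.0430 times the length of its WT partner. At 16 cycles 1 V1R gene was higher in KO and 0 lower (58.6% and 7.32% of all genes), and at 20 cycles 0 were higher and 6 lower (0.969% and 68.4%). The 7 genes concerned (73.9% of all genes had CHD4 in some list) had their region in 1 list each, while 9.0% of all genes had CHD4 in all 4 lists. Lap2alpha in WT touched 5 genes at 16 cycles and 9 at 20 cycles (2.18% and 3.93%, against 29.6% and 53.2% of all genes), with mean coverage of 0.199% and 0.242%. Of the 14 genes touched (58.7% of all genes were), 0 had a region in both lists (24.1% of all genes). Of these 14, 13 also had a lamin A/C region in some list, as did 48.9% of V1R genes and 69.7% of all genes. The same share among all genes touched by Lap2alpha was not computed.

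Of the other chemoreceptor families, the large ones held more lamin A/C coverage and the smallest less. The 123 V2R genes, receptors of the basal vomeronasal neurons, went from 2.42% ± 1.296 in WT to 3.25% ± 2.03 in KO and were higher in 2 of 4 pairs, by 1.44 and 3.13 points for E1, while 3A6 had -0.602 and -0.678 points. The 1109 olfactory receptor genes went from 3.54% ± 2.23 to 4.49% ± 2.62, higher in 3 of 4 pairs, and the 15 trace amine-associated receptor genes had 0% in WT and 0.580% ± 0.468 in KO. A lamin A/C region in at least 1 list was absent from 51.1% of V1R, 21.1% of V2R, 11.7% of olfactory receptor and 73.3% of trace amine-associated receptor genes. The 68 other protein-coding genes inside the V1R clusters went from 0.695% ± 0.504 to 1.41% ± 0.402 and were higher in 4 of 4 pairs, as V1R genes were. Differences between families were not tested, since 1 library per group allows no test.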

How the data were processed

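The authors deposited each of the 18 libraries as a list of intervals giving chromosome, start and end in base pairs, with no count, height, fold or significance. Per the submitters' processing notes, positions refer to GRCm38 and the software included MACS2 2.1.4, HOMER 4.11.1, bedtools, SAMtools and deepTools. What each program did, which threshold and control applied and how reads that map to several places were handled is not given in the sources used here. The inputs were not analysed here. A longer list can come from more reads or a looser threshold, so coverage is not an amount of protein.

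In 7 lists intervals overlapped each other (all 4 E1 lists, and in KO the 20-cycle lists of CHD4, BRG1 and 3A6). Overlapping intervals were merged into regions, and intervals of width 0 or on the mitochondrial genome were dropped. For each RefSeq protein-coding gene the percent of the body plus 1 kb each side lying in regions was computed per library with Python 3.11.15, numpy 2.4.6 and pandas 2.3.3. Shares have 95% Wilson intervals (scipy 1.17.1), and for a count of 0 the limit is 3 genes of the total. KO minus WT was taken within pairs matched on antibody and cycles, and 110 genes lying before the first region of their chromosome, 2 of them members, were left out as not measured. A cluster ends where the gap to the next V1R gene exceeds 1 Mb, and subfamily letters come from gene synonyms, which gave a letter to 126 members. Start regions of 300 bases came from RefSeq, and the identity of 2 windows is 1 minus their edit distance over 300 bases (edlib). The scripts were tested on simulated intervals.

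The rule for members uses no measured value, but the family, the gene lists and the clusters were chosen with earlier results of these data known. Named genes were, by rule, the most lamin-covered gene of each cluster of 3 or more, those differing one way in all 4 lamin pairs, those with BRG1 in all 4 lists, and up to 6 with lamin A/C over the start in the most lists. CHD4 regions in at least 3 lists and Lap2alpha regions in both would also have qualified. The planned protein identities were not run, as protein sequences were not used here.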

Additional observations from a re-analysis of the deposited data

Results flagged for a closer look

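In the chromosome 17 cluster, Vmn1r224 to Vmn1r237, both 3A6 pairs had less lamin A/C coverage in KO, by -5.37 percentage points on average, and both E1 pairs had more, by 2.78 points. In the chromosome 13 cluster, Vmn1r188 to Vmn1r223, the means of the antibodies likewise had opposite signs, -0.973 points for 3A6 and 1.14 points for E1. These clusters are listed because the mean over their genes moved one way in every pair of one antibody and the opposite way in the other. The whole span of the chromosome 13 cluster did not, being higher in KO by 0.306 points with 3A6 at 16 cycles. The flanks of the chromosome 17 cluster and the V2R family had the same signs by antibody. The difference between antibodies was not tested, as each antibody has 2 pairs of single libraries.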

How the results depend on the processing

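The higher mean lamin A/C coverage of V1R genes in KO kept its direction under all 20 alternatives run (0.0672 to 0.923 points, 0.340 to 0.683 with 1 pair left out), and that of Vmn1r4 to Vmn1r31 under all 16 (1.57 to 4.07 points). It was 0.127 points when both lists of a pair were cut to the same number of widest regions and 0.0672 points with equal covered length. The difference relative to chromosome-span coverage changed sign with the gene body alone (-0.0245), regions of at least 300 bp (-0.0750), clusters of 10 or more genes weighted equally (-0.233), 16 cycles alone (-0.00306) and 3A6 alone (-0.0707). With 1 pair left out it ran from -0.0407 to 0.136. The chromosome 17 difference became 2.78 points with E1 alone and ran from -3.32 to 0.236 with 1 pair left out. The 2 genes higher in all 4 pairs became 0 with the gene body alone, with equal numbers of regions, with equal covered length and with regions of at least 300 bp. They became 11 with 5 kb flanks, 4 with pseudogenes added, and 2 to 9 with 1 pair left out. The 0 genes lower in all pairs became 2 with 5 kb flanks and 0 to 3 with 1 pair left out. BRG1, 0.105 points in KO minus WT, moved to 0.0400 with equal covered length, 0.0423 with pseudogenes added, 0.161 with intervals within 1 kb joined, 0.182 with clusters weighted equally and 0.168 without the Vmn1r91 to Vmn1r183 tract. CHD4, -0.0594 points, changed sign with regions of at least 300 bp (0.00962) and at 16 cycles alone (0.0258), was 0 with equal numbers of regions and with equal covered length, and kept its direction in 8 of 12 alternatives. Lap2alpha, 0.221% covered, moved to 0.303% with 5 kb flanks, 0.107% with regions of at least 300 bp, 0.325% with pseudogenes, 0.282% with equal cluster weights and 0.353% without the tract. Lamin A/C touched 34 V1R genes per list on average by 1 bp and 14.25 by at least 10% of the window. The causes were not tested. Leaving out near copies, leaving out chromosome 17, keeping the unmeasured genes at 0 and following 2 clusters separately were chosen after seeing the data. No paired analysis was possible because each group has 1 library and the labels number no replicates, so pairs here are matched on antibody and cycles alone. Depth is unknown, so an empty window can be a weak signal below the caller's threshold.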

Other observations

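Signalling and regulator genes of vomeronasal and olfactory neurons were listed for comparison (22 genes, all found). In lamin A/C lists, 17 of the 22 had no region in any WT library, against 77.2% of all genes, 2 were higher in KO in all 4 pairs and 0 lower, against 7.92% and 0.565% of all genes. Ano2, a calcium-activated chloride channel of olfactory and vomeronasal neurons, was covered over 0%, 0.404%, 0% and 0% in WT (3A6 at 16, then 20 cycles, then E1) and 5.34%, 7.27%, 2.03% and 10.6% in KO. Ebf2, a transcription factor of the Olf/EBF family, was covered over 0%, 0.215%, 0% and 0% in WT and 1.79%, 2.17%, 0.502% and 3.79% in KO. Both genes were picked for being higher in all 4 pairs, and their WT values were at or near 0. That every KO value exceeds every WT value largely follows from this choice. Both are also long (chromosome 6, 125690419 to 126040133, and chromosome 14, 67233292 to 67430952), and the chance of being touched depends on window length. The transduction genes Trpc2 and Gnai2 had no lamin A/C region in any list. BRG1 lay in 10 of the 22 genes in all 4 of its lists, a share near the 49.0% of all genes, and Gnai2 was covered over 6.52% (WT) and 23.2% (KO) at 16 cycles, then 26.9% and 24.2% at 20 cycles. Trpc2 had no BRG1 at 16 cycles and 1.74% (WT) and 2.78% (KO) at 20 cycles.

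By subfamily, the 31 V1R genes of subfamily C went from 0.604% ± 0.863 lamin A/C coverage in WT to 3.36% ± 2.06 in KO, higher in 4 of 4 pairs, with 24 of 31 touched in some list. The 19 genes of subfamily D went from 0.268% ± 0.262 to 1.33% ± 0.898, also in 4 of 4 pairs. All 13 genes of subfamily E were touched, and their mean was 7.99% ± 4.49 in WT and 6.12% ± 4.06 in KO, lower in KO in 2 of 4 pairs. Subfamily and cluster largely coincide, so these values restate the clusters from another side.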
